A study of Mus musculus with 17 samples.

Results

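The genes described here are 35 immediate early and NF-kB feedback genes, given as a list of symbols. They were matched by symbol to the 54446 genes of the bulk count tables, and 35 of 35 were found there and in each of the 3 single-cell tables. Innate lymphoid cells (ILCs), lymphocytes of tissues that carry no rearranged antigen receptor, were sorted from the skin of C57BL/6 mice as live CD90+ cells without lineage markers or the γδ T cell receptor. They were profiled in 14 bulk and 3 single-cell RNA-seq libraries. In 10 bulk libraries the mice carried a fate-map (fm) reporter, which stays on in a cell after the gene that drives it has been switched off. Reporter-positive cells (fm_pos, n = 2) and reporter-negative cells (fm_neg, n = 2) came from mice with intact Gata3, the transcription factor of type 2 lymphocytes. The groups fm_pos_Gata3flox (n = 3) and fm_neg_Gata3flox (n = 3) came from reporter mice of a Gata3-deleted line, and the labels do not say in which cells the allele was deleted. The remaining 4 bulk libraries were WT_tamoxifen (n = 2), from C57BL/6 wild-type mice, and Gata3KO_tamoxifen (n = 2), from Gata3fl/flCreERT2 mice, in which tamoxifen switches on the Cre enzyme. Both groups were given 5 mg tamoxifen 3 times by intraperitoneal injection. A single-cell library held skin ILCs (from the ear, by the protocol text), and the others held dorsal skin ILCs at 0 and at 10 days after hair was removed by depilation. Both dorsal tables list a tdtomato transcript, which codes for a fluorescent reporter protein, and the labels give the genotype of these mice no further than their C57BL/6 background. The ages of the mice, and whether replicates came from separate mice, were not stated, so p-values measure the spread between these libraries only.

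Immediate early genes are transcribed within minutes of a stimulus because the factors that switch them on, such as SRF with its ETS partners, CREB and NF-kB, are already present in the resting cell. Many of them code for transcription factors of the AP-1, EGR and NR4A families, and others code for proteins that shut the response off: dual-specificity phosphatases act on MAP kinases, ZFP36 proteins destabilise mRNAs, and the IκB proteins and A20 restrain NF-kB. In ILCs these genes are known to respond to cytokines, neuropeptides and lipid mediators, and they also rise when tissue is dissociated into single cells.

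Promoters in RefSeq (GRCm38.p6) were matched for 28 of the 35 genes. Those of Fosl1, Egr1, Egr3, Ier2, Myc, Nfkbiz and Cebpd are not given. In the 250 bases before the start site, on either strand, the 10-letter NF-kB consensus was found in 7 of 28 members (Fos, Fosb, Fosl2, Ier3, Nfkbia, Tnfaip3 and Rel), which is 25%, against 3.90% of all 32851 promoter windows. The 10-letter CArG box, the SRF site, was found in 2 members (Dusp5 and Zfp36), 7.14%, against 1.47% of all windows. The cyclic AMP response element TGACGTCA was found in 2 members (Dusp1 and Btg2), against 1.55% of all windows. The AP-1 site TGAGTCA was found in 1 member, Tnfaip3, against 4.46%. The TATAAA box was found in 5 members (Fos, Nr4a2, Zfp36l1, Tnfaip3 and Gadd45b), 17.9%, against 12.4%. The start site of the window lay within 100 bases of the 5′ end of the gene model in the count tables for 21 of the 28 members. For Nr4a3 it lay 152 bases away, for Tnfaip3 247, for Fosl2 671, for Zfp36 1025, for Jund 1210, for Nr4a1 12577 and for Atf3 34706. A match describes the letters in this window and is not a measured binding site, and the motifs were not searched beyond it. The upstream windows of the members that hold an NF-kB match and were called in a bulk comparison below are shown with the match in capitals.
Ier3, chr17:35821463-35821712, + strand: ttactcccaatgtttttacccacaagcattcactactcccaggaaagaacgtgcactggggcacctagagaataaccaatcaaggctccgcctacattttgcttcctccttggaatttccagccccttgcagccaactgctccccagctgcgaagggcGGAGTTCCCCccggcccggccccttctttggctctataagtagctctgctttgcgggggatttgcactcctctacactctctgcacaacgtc
Nfkbia, chr12:55492648-55492897, - strand: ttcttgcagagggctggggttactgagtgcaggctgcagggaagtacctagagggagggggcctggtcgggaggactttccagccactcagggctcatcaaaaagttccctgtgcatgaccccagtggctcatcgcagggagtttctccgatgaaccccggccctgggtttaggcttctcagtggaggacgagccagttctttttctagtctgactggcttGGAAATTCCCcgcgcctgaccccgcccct
Rel, chr11:23770970-23771219, - strand: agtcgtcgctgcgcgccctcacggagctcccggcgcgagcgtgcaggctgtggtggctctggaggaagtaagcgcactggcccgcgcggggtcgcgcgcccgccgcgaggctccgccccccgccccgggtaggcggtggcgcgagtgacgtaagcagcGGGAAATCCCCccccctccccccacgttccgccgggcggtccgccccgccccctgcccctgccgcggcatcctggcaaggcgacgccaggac
The match lay 92 to 83 bases before the start site in Ier3 and 29 to 20 bases before it in Nfkbia, on the minus strand relative to the gene in both. In Rel a match on the plus strand and one on the minus strand overlap, and together they lie 92 to 82 bases before the start site.

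Library totals were 14450612 to 44098274 counts in the fate-map set and 14529540 to 24576339 in the tamoxifen set. Genes with a count numbered 14525 to 15410 in the fm_pos and fm_neg libraries and 17730 to 18974 in the Gata3flox libraries, so the Gata3 label and the number of detected genes cannot be told apart. Gata3 mRNA was 164 and 303 CPM (counts scaled to the same library size) in fm_pos and 154 to 307 in fm_pos_Gata3flox, 381 and 504 in fm_neg and 264 to 442 in fm_neg_Gata3flox, so the libraries labelled Gata3flox overlapped the intact ones. It was 381 and 581 CPM in WT_tamoxifen and 299 and 314 in Gata3KO_tamoxifen. These values are summed over all exons and so cannot single out a deleted exon. Markers of other skin cells stood apart in fm_neg. The summed level of 12 keratinocyte markers was 2606 to 4780 CPM there, against 399 to 748 in the other fate-map groups, with 10 of 12 counted in both fm_neg libraries and Krt79 at 0. The summed level of 10 fibroblast markers was 6707 to 9038 CPM in fm_neg with 10 of 10 counted, against 79 to 194 in fm_pos with 5 of 10 counted in both libraries and Fbln1, Mmp3 and Pdgfra at 0. It was 157 to 343 in fm_pos_Gata3flox, 438 to 1106 in fm_neg_Gata3flox and 1159 to 4538 in the tamoxifen libraries. In bulk RNA, fewer cells of a type and less RNA per cell cannot be told apart.

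**Figure D1:**
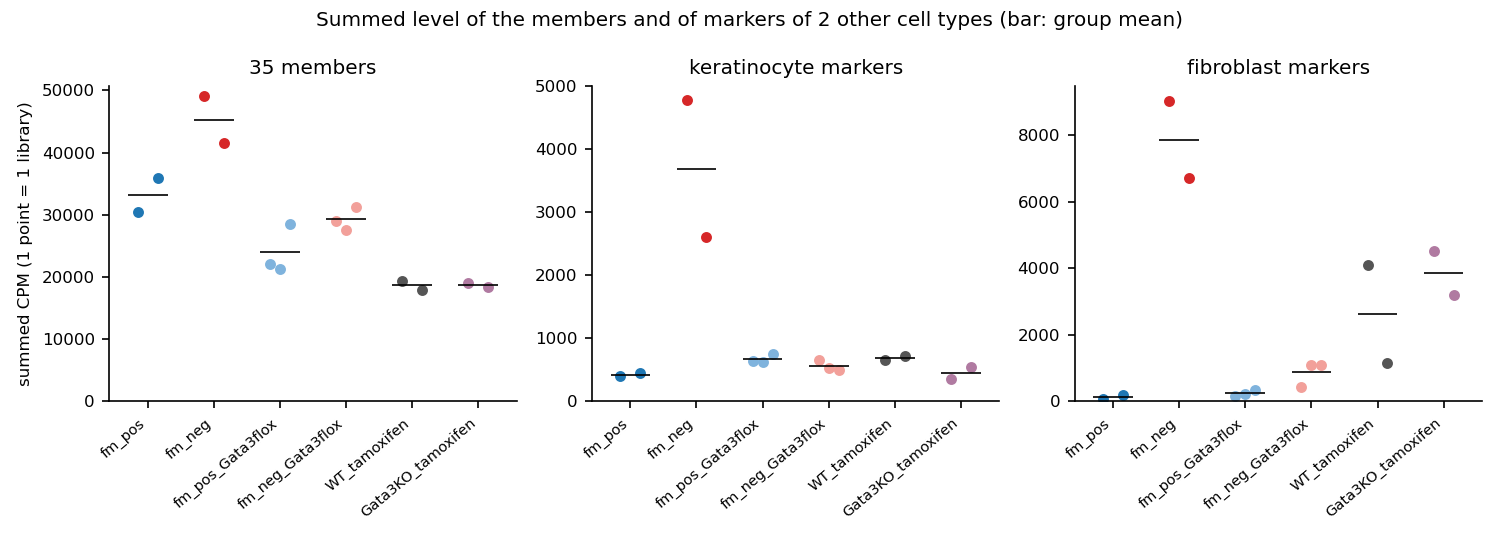
Summed CPM (y axes) of the 35 members, 12 keratinocyte markers and 10 fibroblast markers in each bulk library; each point is 1 library and each bar a group mean. All axes start at 0, and the fm_neg libraries are highest in all 3 panels.

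The members' summed level was 41484 to 49147 CPM in fm_neg, 30416 to 35960 in fm_pos, 27591 to 31301 in fm_neg_Gata3flox, 21366 to 28571 in fm_pos_Gata3flox and 17966 to 19433 in the 4 tamoxifen libraries. Per kilobase of exon, Nfkbia, the inhibitor IκBα that NF-kB itself induces, had the highest mean level in 4 of the 6 groups, and Junb, an AP-1 subunit, in fm_pos and fm_neg. Junb was at 2626 ± 639.9 RPKM (CPM divided by exon length in kilobases; SD, n = 2) in fm_pos and Nfkbia at 2182 ± 90.2, a difference within the spread of Junb. In WT_tamoxifen Nfkbia was at 3093 ± 239 RPKM, above Dusp1, a MAP kinase phosphatase, at 814 ± 91.8. Gadd45b, a stress-response gene, and Dusp1 and Fos were among the 6 highest members in all 6 groups. Egr3 had the lowest mean in all 6 groups, at 1.04 ± 0.711 RPKM in fm_pos and 3.08 ± 0.662 in fm_neg_Gata3flox (n = 3).

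Reporter-positive cells had lower levels of several members than reporter-negative cells in the intact mice. By edgeR's quasi-likelihood test, adjusted by Benjamini-Hochberg over all genes, 7 of 35 members (20%) were called lower in fm_pos, where 2.11% of all 17456 genes tested were called lower, and 0 were called higher, against 0.624%. In either direction 2.74% of all genes were called. The calls fell on 1 of 8 AP-1 and ATF factors, 2 of 6 EGR and NR4A factors, 3 of 9 IER, KLF, C/EBP and MYC genes, 1 of 7 kinase and mRNA feedback genes and 0 of 5 NF-kB genes. At an unadjusted p under 0.05 there were 15 members, against 19.8% of all genes. The median log2 fold change was -0.42 over the members and 0.00 over all genes, and 6 of 35 members were above 0 against 45.0% of all genes. Both fm_pos libraries lay below both fm_neg libraries for 18 of 35 members, against 18.9% of all genes, and above them for 1, Rel, against 16.2%.

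Cebpd, a C/EBP transcription factor of the acute-phase response, differed most. It was 8.11 and 7.4 CPM in fm_pos and 269.7 and 199.8 CPM in fm_neg, and the groups were far apart. The log2 fold change was -4.92 ± 0.43 (SE), with an adjusted p of 0.001 by edgeR's quasi-likelihood test. Myc, the growth-promoting bHLH factor, was 108 and 70.01 CPM in fm_pos against 504 and 548 in fm_neg. Its log2 fold change was -2.57 ± 0.25 (edgeR adjusted p = 0.00175). Ier3, an early gene that modulates cell survival, was 75.3 and 135 CPM against 471 and 577, a log2 fold change of -2.32 ± 0.31 (edgeR adjusted p = 0.00565). For these 3 genes the lower fm_neg library was above the higher fm_pos library by more than the gap inside either fm_pos or fm_neg. Fosl1, the AP-1 subunit FRA1, was 24.8 and 35.8 CPM in fm_pos and 448 and 189 in fm_neg. Its log2 fold change was -3.39 ± 0.47 (edgeR adjusted p = 0.00755). Egr1, a zinc-finger factor induced through SRF, was 49.2 and 70.2 CPM in fm_pos and 599 and 223 in fm_neg, a log2 fold change of -2.78 ± 0.49 (edgeR adjusted p = 0.0202). In Fosl1 and Egr1 the first fm_neg library stood well above the second, and both stood above the fm_pos libraries. Zfp36, which codes for tristetraprolin, a protein that destabilises cytokine mRNAs, was 645 and 1065 CPM in fm_pos and 2304 and 1775 in fm_neg, a log2 fold change of -1.25 ± 0.25 (edgeR adjusted p = 0.0306). Nr4a2, an orphan nuclear receptor, was 370.4 and 562 CPM against 961 and 898, a log2 fold change of -1.0 ± 0.21 (edgeR adjusted p = 0.0362). Neither Zfp36 nor Nr4a2 overlapped between the groups.

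The other 28 members did not pass the test. Their log2 fold changes ran from -1.87 ± 0.69 for Jun, the c-Jun subunit (81.7 and 30.4 CPM against 288 and 120.2), to 1.57 ± 1.36 for Cebpb, a C/EBP factor. Fosb, an AP-1 subunit, came closest, at 169 and 159.8 CPM in fm_pos against 325 and 253 in fm_neg (log2 fold change -0.81 ± 0.19, edgeR adjusted p = 0.0588). Fos was 1912 and 2702 CPM against 4167 and 3453 (log2 fold change -0.72 ± 0.25, edgeR adjusted p = 0.164). Both of these AP-1 genes were lower in each fm_pos library than in either fm_neg library. Of the NF-kB feedback genes, Nfkbia was 3615 and 3409.7 CPM against 4834 and 4556 (log2 fold change -0.42 ± 0.12), and Tnfaip3, which codes for A20, was 1465 and 1854 against 1815 and 1532 (-0.01 ± 0.16), with overlap in Tnfaip3.

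These calls share the fm_neg libraries, whose keratinocyte and fibroblast markers stood apart, with 6 of 12 and 6 of 10 called lower in fm_pos. Of 10 ILC3 and type 17 markers, 4 were called higher in fm_pos (summed level 1800 to 2631 CPM, against 885 to 939 in fm_neg), and of 10 T cell markers 2 were called higher (1872 to 3257 CPM against 1736 to 1996). Of 12 ILC2 markers 3 were called lower (4188 to 6277 CPM against 6430 to 6443). Also called lower were 2 of 12 ILC1 and NK markers and 2 of 7 tested myeloid markers. The part of these cell types in the result was not tested. Fitted on the fm_pos and fm_neg libraries alone, the test called 1 member, Cebpd. With fm_neg_Gata3flox as the negative group, 4 members were called, 3 lower and 1 higher, and the median over the members was -0.03. The fibroblast markers summed to 438 to 1106 CPM in that group. This comparison also sets intact against Gata3flox libraries, so the Gata3 label and the number of detected genes change along with the markers. In that comparison Cebpd (-1.93, edgeR adjusted p = 0.0263) and Myc (-1.41, 0.0182) were called lower. Fosl1 (-0.80, edgeR adjusted p = 0.274), Ier3 (-0.26, 0.611), Zfp36 (-0.17, 0.712) and Nr4a2 (-0.58, 0.131) were not, and Egr1 turned to 0.64 (0.383). Cebpd, Myc, Ier3 and Fosl1 were called without any single library. Without fm_pos replicate 1 or fm_neg replicate 1, 4 members were called in each case, and the edgeR adjusted p was 0.0674 and 0.0516 for Egr1, 0.0707 and 0.0926 for Zfp36, and 0.0977 and 0.0946 for Nr4a2. Without fm_neg replicate 2 Nr4a2 had an edgeR adjusted p of 0.0671.

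**Figure D2:**
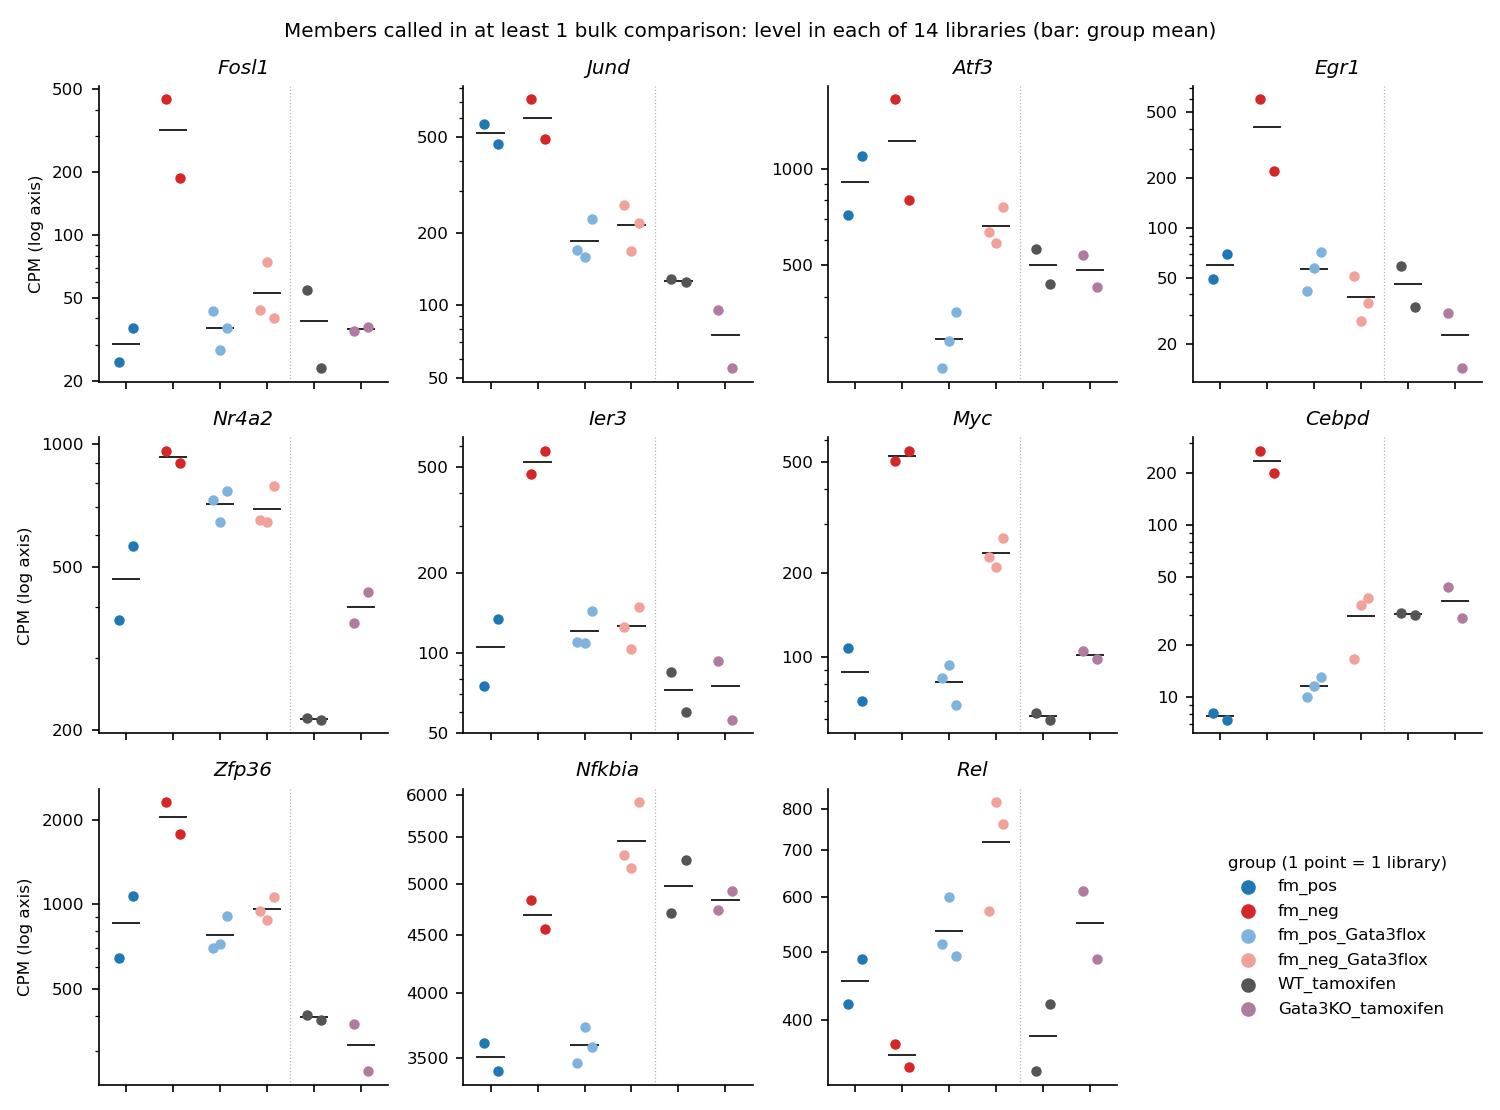
CPM (log y axes, a different range in each panel) of the 11 members called in at least 1 bulk comparison; each point is 1 library, each bar a group mean, and the dotted line separates the fate-map from the tamoxifen set, which were normalised separately. Cebpd, Fosl1, Egr1 and Ier3 are highest in the 2 fm_neg libraries, while Jund differs between the intact and Gata3flox libraries and Rel is lowest in fm_neg among the fate-map groups.

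Among the libraries labelled Gata3flox, 2 of 35 members were called lower in reporter-positive cells by edgeR's quasi-likelihood test, against 0.235% of all genes, and 0 higher, against 0.126%. In either direction 0.361% of all genes were called. Myc was 84.2, 94 and 67.7 CPM in fm_pos_Gata3flox and 229, 211 and 268 CPM in fm_neg_Gata3flox. The log2 fold change was -1.53 ± 0.20 (edgeR adjusted p = 0.0169). Nfkbia was 3468, 3732 and 3586 CPM against 5308, 5164 and 5905, and its log2 fold change was -0.60 ± 0.10 (edgeR adjusted p = 0.0346). In both genes the 3 reporter-positive libraries lay below the 3 reporter-negative ones. Over the 10 fate-map libraries Myc was lower in each reporter-positive library than in any reporter-negative one, and the difference between its reporter effects in the Gata3flox and intact sets was 1.04 ± 0.31 (edgeR adjusted p = 0.184).

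The next smallest p-values in that comparison belonged to Cebpd, Nfkbiz and Atf3. Cebpd was 10.1, 11.7 and 13.1 CPM against 16.7, 34.2 and 37.7, a log2 fold change of -1.35 ± 0.30 (edgeR adjusted p = 0.137). Nfkbiz, which codes for IκBζ, a nuclear cofactor of NF-kB, was 269.7, 283 and 265 CPM against 413, 392 and 508 (-0.68 ± 0.16, edgeR adjusted p = 0.156). Atf3, a stress-induced ATF factor, was 239, 290.4 and 358 CPM against 636, 588 and 762 (-1.16 ± 0.28, edgeR adjusted p = 0.158). The groups did not overlap for any of these 3 genes, though none passed the test. Over all members the median log2 fold change was -0.31 and 10 of 35 were above 0, against 49.9% of all genes. At an unadjusted p under 0.05 there were 12 members, against 7.79%. The 3 reporter-positive libraries were below the 3 reporter-negative ones for 9 members, against 9.18% of all genes, and above them for 3 (Fosl2, Nr4a3 and Klf4), against 9.0%. The calls on Myc and Nfkbia were each lost without any 1 of the 6 libraries, with edgeR adjusted p of 0.0635 to 0.0897 for Myc and 0.0984 to 0.228 for Nfkbia, while the log2 fold changes stayed between -1.64 and -1.41 and between -0.64 and -0.54. With the lane code of the deposited names (whose meaning the labels do not give) as a covariate, 0 members were called. In the same libraries 12 ILC2 markers summed to 2693 to 3916 CPM in fm_pos_Gata3flox and 4690 to 7267 in fm_neg_Gata3flox, with 3 of 12 called lower. The 10 ILC3 and type 17 markers summed to 1934 to 2560 CPM against 782 to 939, with 2 of 10 called higher. The part of these cell types in the Myc and Nfkbia calls was not tested.

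The difference between the reporter effects in the Gata3flox and the intact libraries was tested as an interaction. It was called above 0 for 3 of 35 members by edgeR's quasi-likelihood test, against 0.825% of all genes, and below 0 for 0 members, against 0.183%. In either direction 1.01% of all genes were called. The difference was 3.57 ± 0.49 on the log2 scale for Cebpd (edgeR adjusted p = 0.012), 2.26 ± 0.38 for Ier3 (0.0308) and 3.36 ± 0.61 for Egr1 (0.0388). Next in order were Fosl1, at 2.84 ± 0.57 (0.0534), and Klf4, a Krüppel-like factor, at 1.21 ± 0.29 (0.102). Cebpd, Ier3, Egr1 and Fosl1 were all highest in the 2 fm_neg libraries, where the keratinocyte and fibroblast markers also stood apart. The interaction was called above 0 for 3 of 12 keratinocyte, 3 of 10 fibroblast, 2 of 12 ILC1 and NK and 2 of 7 tested myeloid markers. It was called below 0 for 1 of 12 ILC2 markers, and the part of those cells was not tested. Over the members the median difference was 0.28, against 0.07 over all genes, and 25 of 35 were above 0, against 52.6%. At an unadjusted p under 0.05 there were 10 members, against 14.8%. Cebpd was called without any 1 library. Ier3 lost its call without fm_neg replicate 2 (edgeR adjusted p = 0.0535) or any 1 Gata3flox library (0.056 to 0.091), and Egr1 lost it without fm_pos replicate 1 (0.0704), fm_neg replicate 1 (0.0583) or any 1 Gata3flox library (0.056 to 0.109). The count of called members was 6 without fm_pos replicate 2 and 1 without any 1 of the 6 Gata3flox libraries.

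Within each reporter state, the libraries labelled Gata3flox were set against the intact ones, with the same libraries as above. In reporter-positive cells 2 of 35 members were called lower in fm_pos_Gata3flox by edgeR's quasi-likelihood test, against 0.418% of all genes, and 0 higher, against 1.11%. In either direction 1.52% of all genes were called. Jund, the AP-1 subunit that is also expressed in resting cells, was 169.9, 159 and 228 CPM in fm_pos_Gata3flox and 568 and 469 in fm_pos, a log2 fold change of -1.48 ± 0.24 (edgeR adjusted p = 0.023). Atf3 was 239, 290.4 and 358 CPM against 718 and 1101 (-1.62 ± 0.30, edgeR adjusted p = 0.0362). No library of one group reached the other in either gene. Nfkbiz (269.7, 283 and 265 CPM against 497 and 364) came next, at -0.66 ± 0.18 (edgeR adjusted p = 0.096). Klf4 (213, 188 and 169 CPM against 119 and 101) was at 0.79 ± 0.21 (edgeR adjusted p = 0.0973). Junb (2375, 2264 and 4506 CPM against 5000.3 and 7083) was at -0.99 ± 0.28 (edgeR adjusted p = 0.108). None of these 3 genes overlapped between the groups, and Klf4 was the one with the higher level in fm_pos_Gata3flox. The median over the members was -0.12, against 0.18 over all genes, and 13 of 35 were above 0, against 57.3%. The 10 members wholly below compare with 11.8% of all genes and the 5 wholly above with 21.2%, and 10 members had an unadjusted p under 0.05, against 19.1%. Jund lost its call without fm_pos replicate 1 (edgeR adjusted p = 0.0506) and Atf3 without fm_pos replicate 2 (0.0804), and both lost it without fm_pos_Gata3flox replicate 1 (0.0817 and 0.112) or 2 (0.0911 and 0.118). The count was 3 members without fm_pos replicate 2 and 4 without fm_pos_Gata3flox replicate 3. It was 0 in a fit on these 5 libraries alone, and 1, Jund, with the lane code as a covariate. The 10 myeloid markers summed to 335 to 554 CPM in fm_pos_Gata3flox and 169 to 170 in fm_pos, with 2 of the 7 tested called higher. Of 12 ILC1 and NK markers 3 were called higher (1151 to 2427 CPM against 914 to 1433), and of 12 ILC2 markers 2 were called lower (2693 to 3916 against 4188 to 6277). The part of these cell types in the Jund and Atf3 calls was not tested.

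In reporter-negative cells 7 of 35 members were called lower in fm_neg_Gata3flox by edgeR's quasi-likelihood test, against 0.739% of all genes, and 1 higher, against 0.596%. Together they are 22.9% of the members, against 1.33% of all genes. Cebpd (16.7, 34.2 and 37.7 CPM against 269.7 and 199.8) fell by 2.99 ± 0.34 on the log2 scale (edgeR adjusted p = 0.00822). Egr1 (51.9, 27.4 and 35.5 CPM against 599 and 223) fell by 3.42 ± 0.43 (edgeR adjusted p = 0.0122). Ier3 (125, 104 and 149 CPM against 471 and 577) fell by 2.06 ± 0.26 (edgeR adjusted p = 0.0127). In these 3 genes every Gata3flox library lay far below both fm_neg libraries. Fosl1 (44, 74.2 and 40.2 CPM against 448 and 189) fell by 2.59 ± 0.40 (edgeR adjusted p = 0.0219). Jund was 260.0, 168 and 219 CPM against 718 and 489.6, a log2 fold change of -1.48 ± 0.24 (edgeR adjusted p = 0.0277), and the reporter effects on Jund in the 2 sets differed by 0.0 ± 0.35. Myc (-1.16 ± 0.22, edgeR adjusted p = 0.0421) and Zfp36 (-1.08 ± 0.22, 0.0486) were called lower too. Rel, which codes for the NF-kB subunit c-Rel, was the member called higher, at 573, 819 and 761 CPM against 369 and 343, with a log2 fold change of 1.01 ± 0.18 (edgeR adjusted p = 0.038). The median over the members was -0.43, against 0.07 over all genes, and 5 of 35 were above 0, against 52.9%. Of the members 21 lay wholly below the fm_neg libraries, against 17.6% of all genes, and 3 wholly above, against 21.9%, and 19 had an unadjusted p under 0.05, against 17.9%. The fm_neg libraries are those with high keratinocyte and fibroblast markers, of which 4 of 12 and 2 of 10 were called lower in fm_neg_Gata3flox, and their part was not tested. With the lane code as a covariate 4 members were called, Cebpd, Egr1, Ier3 and Fosl1. The count of called members was 3 without fm_neg replicate 1, 5 without fm_neg replicate 2, and 2, 0 and 1 without fm_neg_Gata3flox replicates 1, 2 and 3. Cebpd lost its call only without fm_neg_Gata3flox replicate 2 (edgeR adjusted p = 0.0518).

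**Figure D3:**
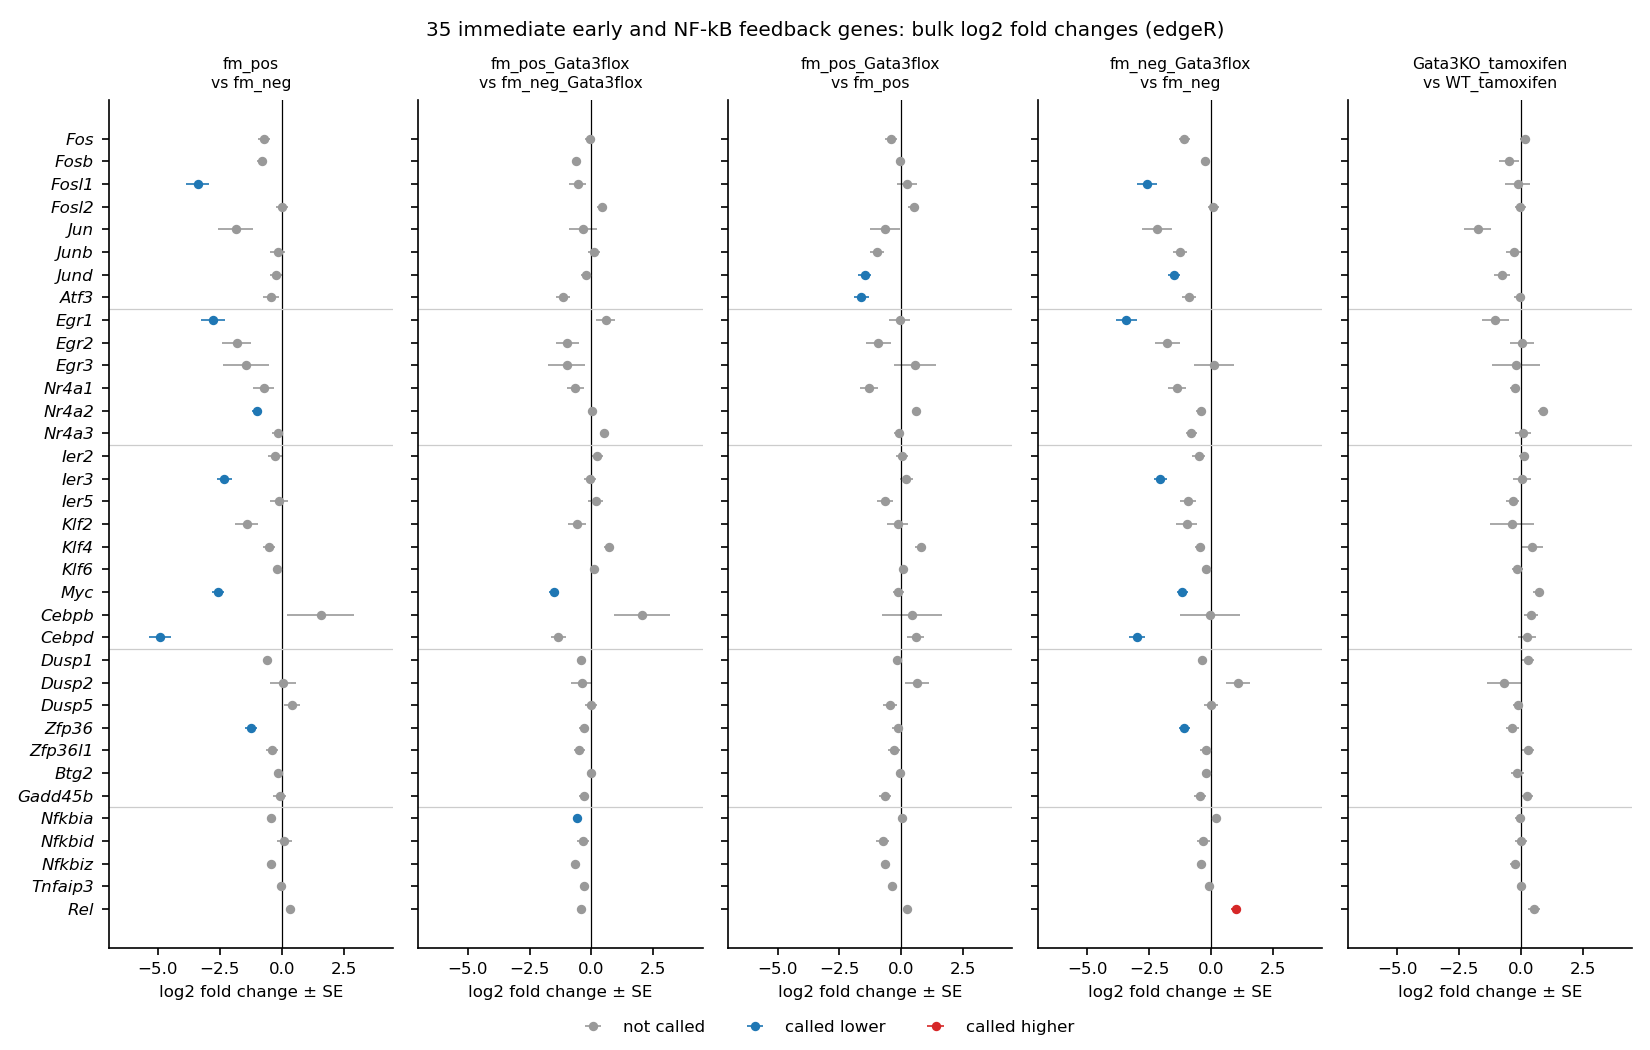
Log2 fold changes (x axes) with their SE for the 35 members (rows, ordered by role) in 5 bulk comparisons; blue marks members called lower, red called higher and grey those not called. Most points lie left of 0 in the comparisons with fm_neg, and no member is coloured in the tamoxifen comparison.

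In the tamoxifen set, 0 of 35 members and 0 of 13272 genes were called between Gata3KO_tamoxifen and WT_tamoxifen by edgeR's quasi-likelihood test. At an unadjusted p under 0.05 there were 3 members, against 6.89% of all genes, and DESeq2 called 1 member and 200 genes. Nr4a2 was 364 and 435 CPM in Gata3KO_tamoxifen and 214 and 212 in WT_tamoxifen, with no overlap. Its log2 fold change was 0.91 ± 0.20 (edgeR adjusted p = 0.585), and it was the member DESeq2 called (DESeq2 adjusted p = 0.0072). Myc was 105 and 99 CPM against 63.2 and 59.8 (0.73 ± 0.23), and Jun was 9.5 and 5.5 against 24 and 26.3 (-1.74 ± 0.56), both with an edgeR adjusted p of 0.585. Rel was 612 and 489 CPM against 338 and 421 (0.54 ± 0.23, edgeR adjusted p = 0.769). Jund was 95.6 and 54.6 CPM against 128 and 125 (-0.75 ± 0.33, edgeR adjusted p = 0.801). Each of these 5 genes had non-overlapping groups. The median over the members was -0.04, against -0.02 over all genes, and 16 of 35 members were above 0, against 48.5% of all genes. The groups did not overlap for 5 members that were higher, against 16.8%, and 7 that were lower, against 19.3%.

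Genes of the same pathways that are not members were read from lists of relatives, with means ± SD in CPM. The shares of all genes called are those given above, such as 2.11% lower for fm_pos against fm_neg and 0.739% lower for fm_neg_Gata3flox against fm_neg. The calls on Spry1, Spry2, Irf1, Socs3, Mafk, Hspb1 and Zfp36l2 below rest on the fm_neg libraries. So do that on Klf9 in reporter-negative cells, those on Csf2 and Cd40lg for fm_pos against fm_neg, and the interactions. The keratinocyte and fibroblast markers were high in fm_neg, and the part of those cells was not tested. Of 10 other MAP kinase feedback genes, 2 were called lower in fm_pos than in fm_neg: the Sprouty inhibitors Spry1 (21.6 ± 4.18 against 83.4 ± 2.74, log2 fold change -1.95 ± 0.36) and Spry2 (10.2 ± 8.79 against 76.4 ± 3.38, -2.91 ± 0.56). Dusp10, a MAP kinase phosphatase, was called lower in fm_pos_Gata3flox than in fm_neg_Gata3flox (40.1 ± 18.3 against 146 ± 20.7) and than in fm_pos (-1.70 ± 0.32). Of 25 other early-response genes, 1 was called lower in fm_pos, Irf1, an interferon-response factor (123 ± 38.1 against 584 ± 69.4, -2.25 ± 0.28), and its interaction was called too (2.53 ± 0.36). Klf9, a Krüppel-like factor, was called lower in the Gata3flox libraries of both reporter states (-1.46 ± 0.28 and -2.25 ± 0.28). In reporter-negative cells Irf1 (-1.87 ± 0.25) and Socs3, a cytokine signalling inhibitor (-2.42 ± 0.45), were called lower and Zfp36l2 (1.0 ± 0.20) higher with the Gata3flox label. Of 11 NFAT and calcium targets, Csf2, which codes for GM-CSF, was called lower in fm_pos (30.1 ± 16.7 against 279 ± 182) and in fm_pos_Gata3flox (24.9 ± 6.06 against 445 ± 56) than in the reporter-negative group of each set. Cd40lg was called higher in fm_pos (91.5 ± 89.8 against 8.83 ± 0.693) and lower in fm_pos_Gata3flox (1.03 ± 0.306 against 17.2 ± 2.06), with an interaction of -7.41 ± 0.94, and its 2 fm_pos libraries lay far apart. Tnfsf9 was called lower in fm_pos_Gata3flox than in fm_neg_Gata3flox (269 ± 20.2 against 983 ± 289.7), and Cd40lg (-6.45 ± 0.68) and Il2 (-1.19 ± 0.22) lower than in fm_pos. Of 11 tested AP-1 and CREB relatives, 1 was called, Mafk, lower in fm_neg_Gata3flox than in fm_neg (-1.96 ± 0.38). Of 10 heat shock genes, Hspb1 was called lower in fm_pos (-2.08 ± 0.40) and Hsp90aa1 higher in fm_pos_Gata3flox than in fm_pos (0.93 ± 0.13). By edgeR 0 of 17 NF-kB core genes and 0 of 15 tested SRF and MAP kinase genes were called in the 5 fate-map contrasts, with 1 to 3 of the first list and 0 to 3 of the second at an unadjusted p under 0.05 in each. Rela, the NF-kB subunit p65, came closest in the first list, at -1.33 ± 0.29 for fm_neg_Gata3flox against fm_neg (edgeR adjusted p = 0.0584) and -1.16 ± 0.29 for fm_pos_Gata3flox against fm_pos (0.0789). For fm_pos against fm_neg the smallest p belonged to Cyld (0.91 ± 0.25, edgeR adjusted p = 0.0863) and Traf1 (0.44 ± 0.28, 0.413) in the first list, and to Elk3 (1.25 ± 0.41, 0.143) and Srf (-2.46 ± 1.07, 0.244) in the second.

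In single cells the 35 members gave a median of 302 of 10000 counts per cell in the skin library, 156 in the day 0 library and 183 in the day 10 library, and the cell at the 90th percentile gave 712, 362 and 393. After filters 4103 skin cells (median 2358 counts), 553 dorsal cells of day 0 (1984) and 443 of day 10 (1811) were kept, and 4 cell barcodes were shared between the skin and day 0 libraries, with 0 between the others. The highest members in skin were Junb (32.3 per 10000 counts), Nr4a1 (31.2), Zfp36l1 (26.7), Jund (24.03), Nfkbia (23.1) and Tnfaip3 (21.7). The 3 lowest were Cebpd, with 65 counts in the whole skin library (0.0635 per 10000), Ier3, with 148 (0.145), and Fosl1, with 240 (0.234). These 3 are also among the members called lower in fm_pos than in fm_neg. The other members called there were at 15.3 (Zfp36), 4.71 (Nr4a2), 1.32 (Egr1) and 0.801 (Myc) per 10000 in skin. In the skin library the 12 keratinocyte markers summed to 1.69 per 10000 and the 10 fibroblast markers to 0.103, with 8 of 10 counted. The part of those cells in the bulk calls was not tested.

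Cells were clustered with the 35 members left out, and the levels of the members differed between clusters, as a description with no test. Relatives of the members stayed in the clustering, and Cd69, Pim3 and Spry1 are among the leading genes of skin cluster 2. A high member level in a cluster led by such relatives is not independent of how the cluster was drawn. In the skin library, cluster 2 (1497 cells, unnamed, led by Hspa1a, Hspa1b, Tnfsf9, Il2 and Cd69 among others) held 539.6 member counts per 10000. Cluster 3 (588 cells, ILC2-like) held 386, cluster 4 (268 cells, unnamed, led by T cell and type 17 genes) 286, and cluster 1 (1667 cells, unnamed, led by Pou2af1 and Tnfsf8) 231. Of the smaller clusters, all unnamed, cluster 5 (54 cells, led by the myeloid marker Lyz2) held 338. Cluster 6 (15 cells, led by Tff1) held 224.5 and cluster 7 (14 cells, led by the B cell marker Cd79a) 241. The highest ratios of cluster 2 to cluster 1 were those of Nfkbid, an IκB-family gene (1.53 per 10000 in cluster 1 and 13.9 in cluster 2), Gadd45b (2.88 and 17.6), Egr3 (0.265 and 1.43), Zfp36 (6.05 and 31.1) and Dusp2, a MAP kinase phosphatase (1.05 and 4.95). The lowest ratios were those of Cebpb (3.43 and 4.04), Rel (5.91 and 7.14) and Fosl2 (15.8 and 19.2), and that of Nr4a3, which was lower in cluster 2 (10.7 and 9.17). Cells of cluster 2 also had a median of 1868 counts against 2734 in cluster 1, a median mitochondrial share of 5.57% against 3.97%, and 62.7 against 38.7 heat shock counts per 10000. The part of depth, RNA quality and heat shock in the member levels was not tested. With each cell thinned to 1000 counts, Nfkbid was detected in 61.4% of cluster 2 cells (95% exact interval 58.7 to 63.9) and 13.2% of cluster 1 cells (11.6 to 15), Fosb in 84.4% and 46.7%, and Nr4a3 in 41.6% and 55.1%. No cell type in these libraries is known to lack these genes, so no background share from free RNA is given.

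In the dorsal libraries, clustered together, dorsal cluster 3 (238 cells, 119 of each day, unnamed, led by Hspa1a, Hspa1b and Tnf) had 349 member counts per 10000, against 161 in cluster 1 (400 cells, unnamed, with tdtomato among its leading genes at 3.07-fold the level of the other cells) and 167 in cluster 2 (358 cells, ILC2-like). Zfp36 was at 17.2 per 10000 in cluster 3 and 2.22 in cluster 1, Nr4a1 at 41.8 and 6.01, Nfkbid at 6.04 and 0.598, and Egr1 at 3.08 and 0.476. Heat shock genes were at 64.2 per 10000 in cluster 3 and 35 in cluster 1. The median cell had 1609.5 and 1958 counts. The leading genes of cluster 3 also included the early-response relatives Plk3, Zfp36l2, Cd69, Pim3, Klf10, Ppp1r15a and Tob1. These stayed in the clustering, so the high member level of cluster 3 is not independent of how it was drawn. In cluster 2 Nfkbia (10.1), Rel (4.75) and Nr4a1 (12.2) were above cluster 1 (4.43, 2.53 and 6.01), while Klf4 (2.34 and 4.57) and Fos (5.37 and 6.5) were below it.

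**Figure D4:**
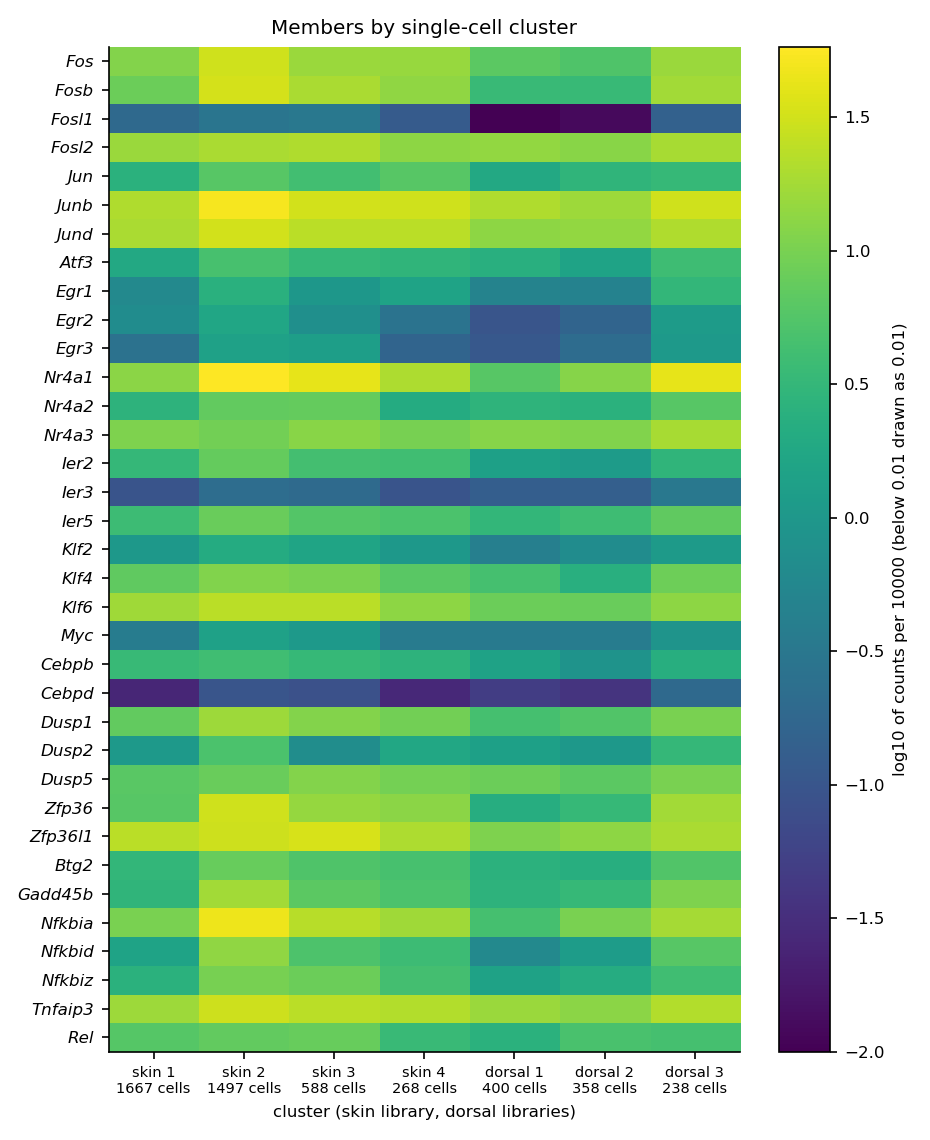
Level of the 35 members (rows) in the 4 largest skin clusters and the 3 dorsal clusters (columns, with cell numbers), as the log10 of counts per 10000; members were left out of the clustering. Skin cluster 2 is the brightest of the skin columns for most rows and dorsal cluster 3 the brightest of the dorsal columns, and the rows of Fosl1, Ier3 and Cebpd are dark throughout.

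Between the libraries of day 0 and day 10 after depilation, 0 of 33 members with at least 20 summed counts differed by a fold of 2 or more, against 3.15% of 7803 genes that were higher and 3.47% that were lower, 6.63% in all. With 1 library per day there is no test, and intervals cover counting error only. The 95% interval of the day 10 to day 0 ratio lay above 1 for 13 members, against 8.46% of all genes, and below 1 for 3, against 9.61%, and the median ratio was 1.07 against 0.977. An interval narrows as counts rise, so these shares also depend on the counts of the genes. Fosl2, with 2959 summed counts, lay above 1 at a ratio of 1.14. Members and all genes were not matched for counts. The highest ratios were those of Nfkbid, at 1.86 (1.52 to 2.29) with 1.42 counts per 10000 on day 0 and 2.64 on day 10, and Nr4a1, at 1.85 (1.73 to 1.99) with 11.5 counts per 10000 on day 0 and 21.3 on day 10. Klf2, a factor of lymphocyte quiescence, was at 1.75 (1.23 to 2.5), Rel at 1.53 (1.32 to 1.76), Junb at 1.38 (1.3 to 1.47), Nr4a2 at 1.37 (1.17 to 1.59) and Nfkbia at 1.33 (1.21 to 1.45). The 3 lower members were Fos, at 0.781 (0.704 to 0.865) with 8.68 counts per 10000 on day 0 and 6.78 on day 10, Fosb at 0.826 (0.736 to 0.926) and Tnfaip3 at 0.887 (0.826 to 0.953). Heat shock genes were at 36.5 per 10000 on day 0 and 50.4 on day 10. The make-up of the libraries differed too: dorsal cluster 1 held 284 of the 553 day 0 cells and 116 of the 443 day 10 cells, cluster 2 held 150 and 208, and cluster 3 held 119 of each. The part of both in the ratios over all cells was not tested.

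**Figure D5:**
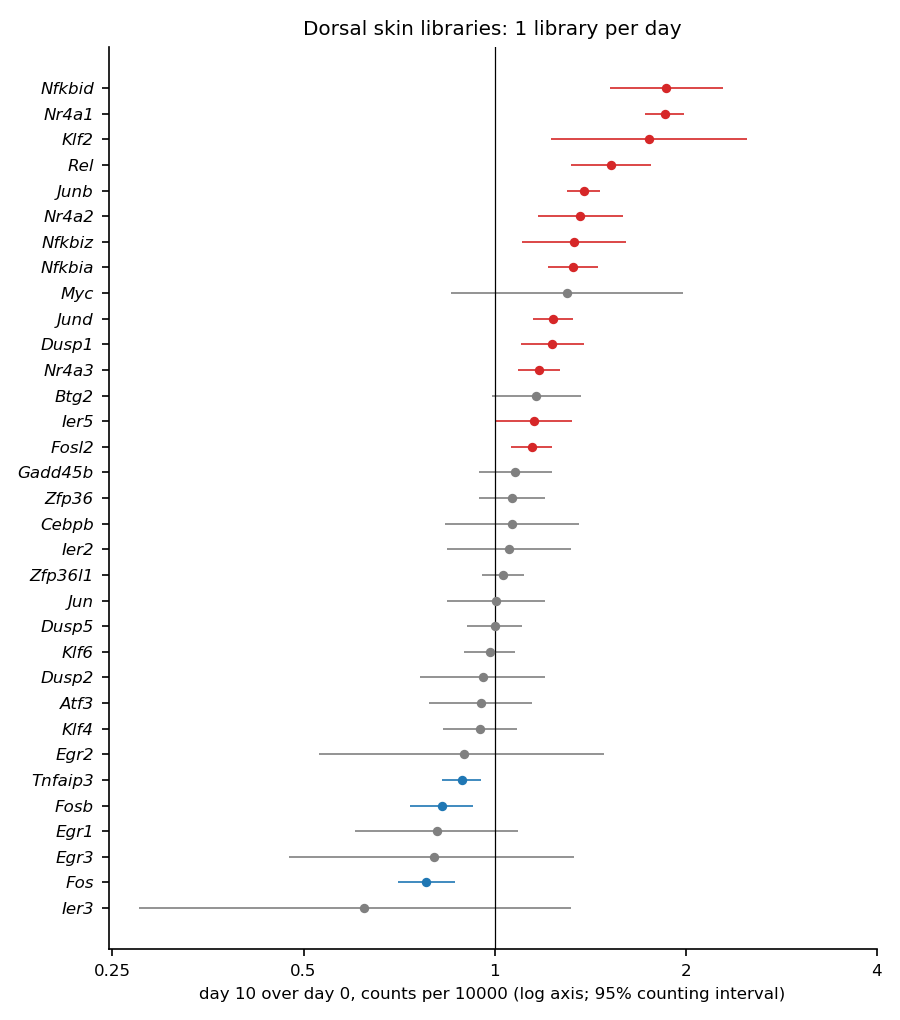
Ratio of counts per 10000 on day 10 to day 0 (log x axis) with its 95% counting interval for the 33 members with at least 20 summed counts, 1 library per day; red intervals lie above 1 and blue ones below. Nfkbid and Nr4a1 are farthest right, and Fos, Fosb and Tnfaip3 are the 3 members whose intervals lie below 1.

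Within dorsal clusters the ratios lay on different sides of 1. In cluster 3, the cluster with the highest member levels, the interval lay below 1 for 17 of 32 members, against 6.91% of all genes in that cluster, and above 1 for 1, Junb, against 5.55%. In cluster 2 it lay above 1 for 15 of 30 members, against 7.06%, and below 1 for 0, against 8.59%. In cluster 1 it lay above 1 for 9 of 30, against 6.48%, and below 1 for 1, Zfp36l1, against 6.52%. These shares too depend on the counts of the genes, which were not matched. The median ratio over members was 0.8 in cluster 3, 1.38 in cluster 2 and 1.15 in cluster 1, while over all genes it was 1.01, 0.965 and 0.961. Fos had a ratio of 0.409 (0.343 to 0.487) in cluster 3 and 1.18 (0.967 to 1.43) in cluster 2. Fosb was at 0.443 (0.376 to 0.521) in cluster 3 and 1.59 (1.24 to 2.06) in cluster 2. Nr4a1 was at 0.904 (0.821 to 0.995) in cluster 3 but at 3.15 (2.63 to 3.78) in cluster 1 and 2.94 (2.53 to 3.43) in cluster 2. Nfkbid was at 0.951 (0.735 to 1.23) in cluster 3 but at 3.63 (1.99 to 6.73) and 3.72 (2.21 to 6.59) in the other clusters. The median counts per cell on day 0 and day 10 were 1553 and 1642 in cluster 3, 2238 and 2041 in cluster 2, and 2009 and 1864 in cluster 1. Whether these ratios differ between clusters was not tested, since each day is 1 library. Early-response relatives of the members stayed in the clustering, so ratios within clusters are not independent of how the clusters were drawn.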

How the data were processed

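The deposited bulk values are raw counts per gene, not normalised, and the deposited single-cell values are whole-number counts per gene and cell. Per the submitters' processing notes, HISAT2 2.1.0 aligned the reads to mm10 and featureCounts of the Subread package counted them; the strand setting and the single-cell platform are not given in the sources used here. Reads of overlapping and antisense genes can therefore not be told apart from those of the members.

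edgeR 4.0.16 (under R 4.3.3) was run on the bulk counts with filterByExpr by group, TMM factors and a quasi-likelihood fit, as 1 model over the 10 fate-map libraries and another over the 4 tamoxifen libraries. A gene counted as called at a Benjamini-Hochberg adjusted p under 0.05 over all genes tested. No p was adjusted over the members alone. Per-gene CPM values use TMM factors. DESeq2 1.42.0 was an alternative, as were other filters, scaling factors, lane codes, replicate blocks and leaving out libraries.

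scanpy 1.11.5 was used on the single cells. Removed were cells with fewer than 200 genes, cells above 10% mitochondrial counts (338 in skin; the dorsal tables list 0 mitochondrial genes) and predicted doublets (3 in skin, a share too low to count as working detection, and 11 in each dorsal library). Clustering left out the members and used 2000 variable genes, 30 principal components, 15 neighbours and Leiden resolution 0.5. Ratios carry exact Poisson intervals and shares Clopper-Pearson ones, all at 95% and for counting error only. Promoter windows came from RefSeq tables of GRCm38.p6.

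Members called in at least 1 comparison are given library by library, with the 5 smallest p where fewer than 5 were called; of the related lists, the called genes or the 2 with the smallest p. The members, the lists and these rules were chosen with earlier results of these data known. The gene that drives the fate-map reporter is not reported here. The comparison of days within clusters was added after the data were seen.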

Additional observations from a re-analysis of the deposited data

Results flagged for a closer look

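The reporter effect differed between the Gata3flox and the intact libraries for 3 members, by a test of the difference itself (edgeR's quasi-likelihood interaction test with Benjamini-Hochberg adjustment). It was 3.57 ± 0.49 on the log2 scale for Cebpd (adjusted p = 0.0120), 3.36 ± 0.61 for Egr1 (0.0388) and 2.26 ± 0.38 for Ier3 (0.0308). For Cebpd the effect was -4.92 in the intact and -1.35 in the Gata3flox libraries, for Ier3 -2.32 and -0.06, and for Egr1 -2.78 and 0.58. The Cebpd difference was called without any 1 library, at an adjusted p of at most 0.0399, and the other 2 were not. The 3 genes were highest in the fm_neg libraries, where 10 fibroblast markers summed to 6707 to 9038 CPM against 438 to 1106 in fm_neg_Gata3flox, and 12 keratinocyte markers to 2606 to 4780 against 506 to 652. The part of those cells in the difference was not tested.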

How the results depend on the processing

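The number of called members depended on the test and the libraries. DESeq2 with its size factors called 14 members for fm_pos against fm_neg (7 by edgeR), 7 for fm_pos_Gata3flox against fm_neg_Gata3flox (2), 9 for fm_pos_Gata3flox against fm_pos (2), 16 for fm_neg_Gata3flox against fm_neg (8), 8 for the interaction (3) and 1 in the tamoxifen set (0). With no filter on low counts edgeR called 5, 6, 17 and 5 members in the second to the fifth of these contrasts. With the lane code as a covariate it called 0 in the second, 1 in the third and 4 in the fourth. With only the libraries of both groups it called 1 for fm_pos against fm_neg and 0 for fm_pos_Gata3flox against fm_pos. With fm_neg_Gata3flox as the negative group it called 4, and the log2 fold change of Egr1 turned to 0.64. Leaving out 1 library at a time gave 4 to 8 members for fm_pos against fm_neg, 0 to 1 in the second contrast, 0 to 4 in the third, 0 to 5 in the fourth, 1 to 6 for the interaction and 0 in the tamoxifen set. The cause of these differences was not tested. Over all genes, edgeR called 478, 63, 266, 233, 176 and 0 in these 6 contrasts and DESeq2 2208, 419, 1919, 1584, 1158 and 200, while edgeR with no filter called 1324, 321, 974, 893, 773 and 6. A mean CPM of at least 5 gave 113 in the second and 425 in the fourth, the lane code 250, 10, 133, 77 and 73 in the fate-map contrasts, and only the libraries of both groups 29, 233, 0 and 367 in the first to the fourth. Leaving out 1 library gave 514 to 877, 2 to 27, 66 to 489, 5 to 190 and 54 to 504. In single cells, other cell filters did not move the count of members with a fold of 2 or more between days. Members detected in a larger share of cells in the cluster of highest member total than in the largest other cluster were counted too. They were 30 of 35 in skin and 34 of 35 in the dorsal libraries. Other thinning depths and clustering resolutions moved these counts by no more than 1.5 times. This does not cover the interval counts between days, over all cells or within clusters.

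Whether the replicate numbers shared by the groups pair the libraries was not settled. The correlations of deviations were 0.0975, 0.0169 and 0.04 in the Gata3flox set, where replicates 1 and 3 but not 2 matched their own number best. They were -0.00443 in the intact set, where neither replicate did, and 0.0107 in the tamoxifen set, where both did. With 2 libraries per group the deviations mirror each other, so these values cannot decide on pairing. Summed ILC2, fibroblast, and mast cell and basophil markers, and Gata3, rose from replicate 1 to 3 in both Gata3flox groups. Summed ILC1 and NK, T cell, myeloid and cycling-cell markers fell from replicate 1 to 3 in both. Endothelial markers and the members also kept the same order in both groups. Keratinocyte, ILC3, dendritic, B cell, melanocyte and Schwann, erythroid and heat shock sums did not. These sums come from the same libraries and are not independent, and pairing was not tested with them. The main model had no replicate block. With a replicate block across groups 4 members were called for fm_pos against fm_neg, 1 for fm_pos_Gata3flox against fm_neg_Gata3flox and 4 for fm_pos_Gata3flox against fm_pos, and with a replicate block within genotype 3 and 0 were called in the first and second. Over all genes the block across groups gave 226, 48, 131, 83 and 76 calls in the fate-map contrasts, and the block within genotype 126, 31 and 26 in the first, the second and the interaction.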

Other observations

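Cebpb lay far apart between the libraries of fm_pos and of fm_pos_Gata3flox. It was 230.4, 31.7 and 12.4 CPM in fm_pos_Gata3flox and 120.4 and 14.8 CPM in fm_pos, while it was 174 and 139 CPM in WT_tamoxifen and 252 and 169 CPM in Gata3KO_tamoxifen, where the libraries lay closer together. Its SE in the fate-map contrasts was 1.12 to 1.71 on the log2 scale, the largest of the 35 members in each of the 5 contrasts, and none was called. In the single-cell libraries it was at 3.57 counts per 10000 in skin, 1.35 on day 0 and 1.44 on day 10.

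Detection of the members was also read by whether a cell had a Fos count. In skin cells thinned to 1000 counts, Dusp1 was detected in 62.5% of the 2248 cells with a Fos count and in 38.2% of the 1687 without, Fosb in 72.5% and 51.9%, and Zfp36 in 65.5% and 44.9%, while Fosl2 was detected in 73.5% and 70.7%. Nr4a3 (48.8% and 51.5%), Rel (36.3% and 39.2%) and Egr2 (8.01% and 8.71%) had the smaller share in cells with Fos. So did the rarely detected Fosl1 (1.91% and 2.49%) and Ier3 (1.02% and 1.24%). In the dorsal libraries the direction for Nr4a3 and Rel varied by day: Nr4a3 was at 65.1% and 51.2% on day 0 and 59.4% and 59.9% on day 10. Rel was at 21.2% and 22.1% on day 0 and 39.9% and 27% on day 10. On day 10, Fosl2 was detected in 60.9% of the 138 cells with Fos and in 71.5% of the 274 without. Cells of 1 library are not replicates, so these shares carry no test.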
